A study of Mus musculus with 3 samples.

Results

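The T-box genes followed here are Tbx1, Tbx2, Tbx3, Tbx4, Tbx5, Tbx15, Tbx18 and Tbx20, 8 of the 22350 protein-coding genes on the chromosomes that held peaks. They were examined for NKX2-5 binding in the embryonic mouse heart by taking every peak whose midpoint lay within 100 kb of the gene body annotated in GENCODE M1 (mm9). This gave 14 of the 4418 peaks of the library S1 and 16 of the 5441 peaks of the library S4, a mean of 15 ± 1.41 (SD, n = 2 libraries). Of the 14 S1 peaks, 4 lay on coding exons of Tbx5 and had no counterpart in S4, and the peak lists do not show whether these were NKX2-5 binding. Without them S1 had 10 peaks and the mean was 13 ± 4.24. Both libraries came from chromatin immunoprecipitation followed by sequencing (ChIP-seq) of NKX2-5, a homeodomain factor of cardiac muscle, in wild-type hearts of the Parkes strain at E11.5, with the antibody N-19. There was 1 Input library of E11.5 Parkes heart, for which no peak list was used here. With 1 condition and 2 libraries, the data allow a description of each list and of the match between the lists, and no test between groups. The study treats S1 and S4 as separate experiments, but whether they came from separate pools of hearts is not given in the sources used here, so the spread between them may be partly technical. Whole hearts mix several cell types, so a weak peak cannot be told apart from a strong one carried by few cells.

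A peak is a stretch of the genome in which the reads of a library piled up, and its score is the p-value of the peak caller on a negative log10 scale multiplied by 10. Scores ran from 140 to 3100 in both lists, with a median of 212 in S1 and 223 in S4. The score is relative to the background of its own library and rises with read depth, which is unknown here. For most shared regions near the genes and some other peaks, the place of the score within its own list is therefore also given. Scores given alone are not scaled between the libraries. Peaks of S1 and S4 that overlapped by at least 1 bp were taken as 1 shared region.

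T-box proteins are transcription factors that share a conserved DNA-binding domain, and several of them act with NKX2-5 in the heart. TBX5 and TBX20 are partners of NKX2-5 in chamber myocardium, whereas TBX2 and TBX3 are repressors that keep the atrioventricular canal and the conduction system from taking on a chamber fate. TBX1 acts in second heart field progenitors, and TBX18 marks the sinus venosus and the epicardium. TBX4 and TBX15 are better known from limb and skeletal development.

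The sequence under the best-ranked shared region of each gene that had one is shown, because these are the stretches that both libraries placed near a T-box gene. Each line gives the middle of the overlap between the S1 and the S4 peak with 100 bases on either side, on the plus strand of mm9. The midpoint at Tbx20 lay in the 5′ untranslated region, and the 172 bases of the shared stretch upstream of the gene start are given instead, on the minus strand, which is the direction of transcription. Capitals mark exact matches to AAGTG, the core of the NKX2-5 motif, or TGACA, the core of the MEIS1 motif, on either strand (CACTT and TGTCA are the reverse complements).
Tbx2 and Tbx4, chr11:85613297-85613497: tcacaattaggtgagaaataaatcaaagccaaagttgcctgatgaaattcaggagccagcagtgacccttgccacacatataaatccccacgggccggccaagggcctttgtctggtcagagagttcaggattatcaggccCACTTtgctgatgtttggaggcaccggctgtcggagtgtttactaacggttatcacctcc
Tbx3, chr5:120101676-120101876: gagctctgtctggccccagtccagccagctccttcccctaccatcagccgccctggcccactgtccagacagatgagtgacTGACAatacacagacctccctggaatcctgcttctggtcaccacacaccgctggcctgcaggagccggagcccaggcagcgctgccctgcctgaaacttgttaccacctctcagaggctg
Tbx18, chr9:87502916-87503116: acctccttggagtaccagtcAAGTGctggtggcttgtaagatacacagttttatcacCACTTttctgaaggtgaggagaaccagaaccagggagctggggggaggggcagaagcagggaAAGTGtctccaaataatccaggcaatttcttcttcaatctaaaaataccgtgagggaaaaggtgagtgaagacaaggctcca
Tbx20, chr9:24578747-24578918: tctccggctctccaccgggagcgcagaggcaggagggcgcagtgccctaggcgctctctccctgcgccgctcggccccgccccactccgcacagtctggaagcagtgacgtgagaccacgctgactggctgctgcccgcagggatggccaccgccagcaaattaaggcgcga
The Tbx18 sequence held 3 matches to AAGTG, the Tbx2 and Tbx4 sequence held 1, and the Tbx3 sequence held a single TGACA. Neither core occurred in the Tbx20 sequence, which was the richest in G and C (69.8%, against 47.8% at Tbx18).

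Shared regions lay near 5 of the 8 T-box genes, namely Tbx2, Tbx3, Tbx4, Tbx18 and Tbx20, and none was found near Tbx1, Tbx5 or Tbx15. Over all protein-coding genes, 24.3% had a shared region at this distance. Among the 13576 coding genes whose length was within the range of the 8 genes the share was 25.5%. An S1 peak of any kind lay near 6 of the 8 genes, against 38.4% of coding genes, and an S4 peak near 7 of the 8, against 44.7%. The 5 genes are not independent of each other, since the bodies of Tbx2 and Tbx4 are 44.5 kb apart and a single region was counted for both. The members were chosen with earlier results known, so the counts are read only beside these shares.

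The shared regions numbered 6. The 100 kb windows of the 8 genes merged into 6 blocks of 1.70 Mb with 3.53 shared regions per Mb, against 1.19 in the merged windows of all coding genes. Of the S1 peaks near the genes, 6 of 14 (42.9%, with a 95% interval of 17.7 to 71.1 by the exact Clopper-Pearson method, which covers counting error alone) overlapped an S4 peak, against 58.9% of all S1 peaks. In S4 the number with an S1 partner was 6 of 16 (37.5%, 15.2 to 64.6), against 47.0% of all S4 peaks. The intervals hold the shares of the whole lists, so a difference was not detectable with this number of peaks. Tbx5 carried 9 of the 18 peaks without a partner. Without the 4 S1 peaks on Tbx5 exons, an alternative chosen after the data were seen, the S1 share was 60% of 10 peaks (26.2 to 87.8). Without all peaks near Tbx5, also chosen afterwards, the shares were 66.7% of 9 S1 peaks and 50% of 12 S4 peaks. The shares also rose with the strength of the peaks taken. With a score of at least 200 required, the S1 share was 66.7% (68.3% over the whole list) and the S4 share was 75% (50.3% over the whole list). With both lists cut to the same length the S1 share was 42.9%, against 54.2% of all S1 peaks kept. The S4 share was then 60%, against 53.1% of all S4 peaks kept. Apart from the alternatives chosen afterwards, the S1 share was below the whole-list share wherever the latter is given. With a score of at least 200 these S1 shares were close, 66.7% and 68.3%. Without the 4 S1 peaks on Tbx5 exons, the S1 share of 60% was above the 58.9% of all S1 peaks. The S4 share was below the whole-list share with all peaks taken and above it in the other settings. These settings reuse the same 6 shared regions, so the directions are not separate observations.

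**Figure D1:**
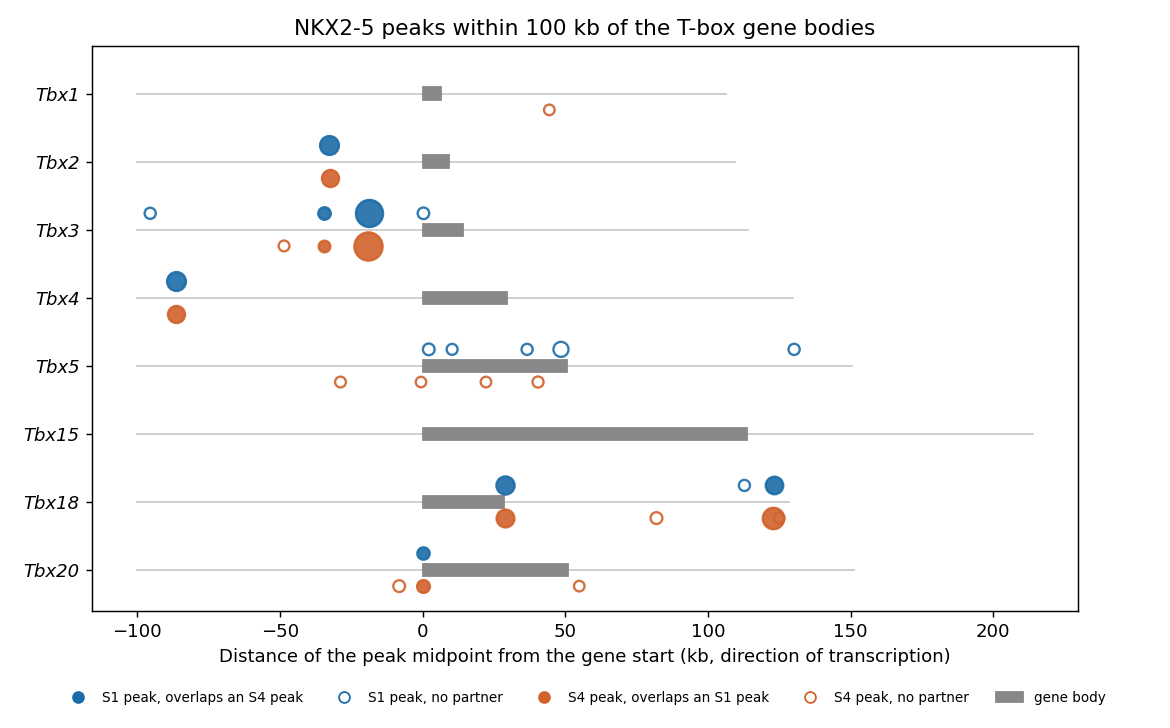
Position of each NKX2-5 peak midpoint relative to the gene start, in kb in the direction of transcription, for the 8 T-box genes; grey bars are gene bodies, lines run to 100 kb on either side, S1 peaks are drawn above and S4 peaks below the line, filled points overlap a peak of the other library, and the point area rises with the score. Filled pairs stand near 5 genes, the pair at Tbx2 and Tbx4 being the same region, and Tbx5 has 5 open S1 and 4 open S4 points.

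Tbx3, which encodes a repressor of the chamber programme, had the strongest region. At chr5:120101309-120102244, 18.9 kb upstream of the gene start, the S1 peak scored 1862 and the S4 peak scored 2031. These were the 34th highest score of S1 and the 38th highest of S4, above 99.2% and 99.3% of the peaks of each list. The peaks were 1121 bp and 1044 bp wide and had 936 bp in common. The region lay in introns of Gm16064 and Gm2301, both annotated as processed transcripts without a coding product, and the nearest coding start was that of Tbx3. It was high in both libraries, with a log2 ratio of S4 to S1 of 0.13.

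A second shared region of Tbx3 lay 34.4 kb upstream of the start, at chr5:120085977-120086566, also within Gm2301. It was weaker, with a score of 271 in S1 and 213 in S4, the latter under the median of its list. Tbx3 also had peaks in 1 library only. In S1 a peak with a score of 207 covered the Tbx3 start (chr5:120120674-120121314), and the nearest S4 peak was 18.4 kb away. Another S1 peak with a score of 180 lay 95.5 kb upstream, and in S4 a peak with a score of 160 lay 48.5 kb upstream. By the number of shared regions, 2 in a window of 214.1 kb, the coding genes most like Tbx3 elsewhere were Alg12, Zfp622 and Acap1, with 2 regions each and windows of 214.0 to 214.1 kb. At least 2 shared regions were found for 6.94% of coding genes.

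Tbx2, the other repressor of chamber fate, lay next to a region at chr11:85612956-85613839, 32.7 kb upstream of its start. The scores were 823 in S1 and 643 in S4, above 95.1% and 91.3% of the lists. The same region lay 86.5 kb upstream of Tbx4, and no other peak of either library was within 100 kb of Tbx2 or Tbx4. It was located in an intron of Bcas3, which runs in the same direction as Tbx2, and in an intron of the long non-coding RNA 2610027K06Rik on the opposite strand. A transcript start of Bcas3, 1.93 kb downstream of the region, was the nearest coding start. This was the single region of the 6 whose nearest coding start belonged to another gene.

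Tbx18 had a pair of shared regions, both downstream of the gene. The first lay 0.431 kb beyond the annotated end of the gene, at chr9:87596844-87597564, where the S1 peak scored 747 and the S4 peak 714. The second lay 94.6 kb beyond the end, at chr9:87502457-87503575, where S1 scored 684 and S4 scored 1103. All of these scores were above 92.6% or more of the peaks of the same list. The far region had the largest difference between the libraries among the 6, a log2 ratio of 0.69, while the ratio at the gene end was -0.07. In 1 library only, S1 had a peak with a score of 179 at 84.4 kb beyond the end, and S4 had peaks with scores of 153 and 224 at 96.5 kb and 53.5 kb. The S4 peak with a score of 153 ended 1.01 kb from the far shared region of S1.

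Tbx20, a T-box factor of chamber myocardium, was the single gene with a shared region over its own start. The region, chr9:24578058-24578918, covered the start of the gene and the first exon. The scores were 259 in S1 and 294 in S4, above 63.5% and 67.9% of the lists and close to each other (log2 ratio 0.18). S4 had a further peak 8.18 kb upstream of the start with a score of 220, and another 3.82 kb beyond the gene end with a score of 146, and S1 had no peak at either place. Of the 6 regions 1 was thus at a promoter (up to 1 kb from a transcript start), 3 were in introns and 2 were intergenic, and over all shared regions the shares were 17.1%, 40.7% and 39.1%.

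**Figure D2:**
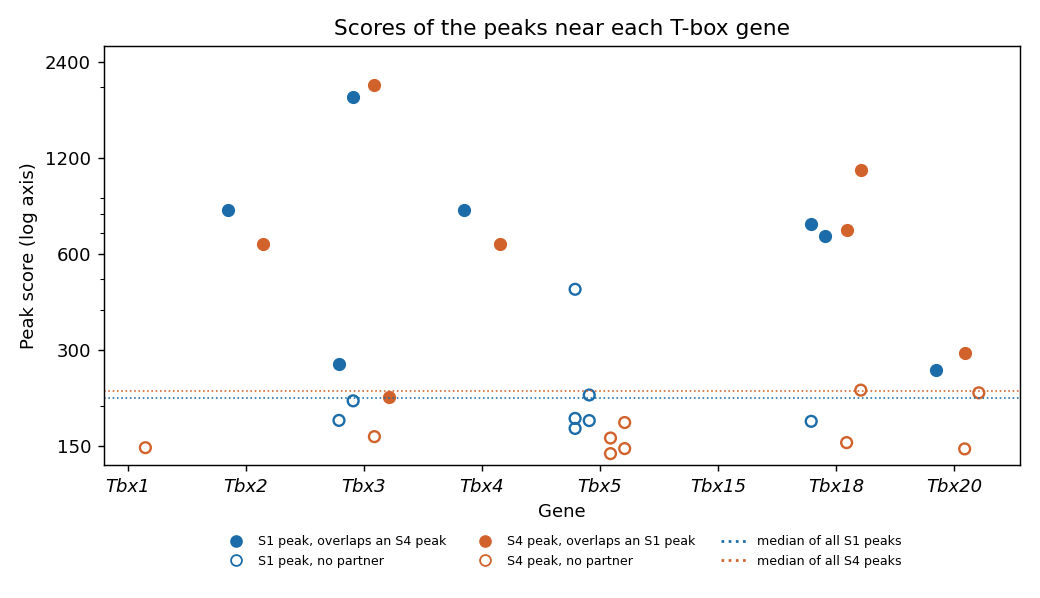
Score of each peak near the 8 T-box genes (log axis), by gene and library, with points shifted sideways where a library had several; filled points overlap a peak of the other library, open points do not, and dotted lines are the medians of all peaks of S1 (212) and S4 (223). The filled points of Tbx3 (1862 and 2031) are the highest, the open points other than the Tbx5 peak of 464 are at 224 or lower, and Tbx15 has no point.

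Peaks that overlapped between the libraries were stronger than those that did not. Near the T-box genes the median score was 716 for S1 peaks with a partner and 181 for those without, and in S4 the medians were 678 and 156. Over all peaks the medians were 279 and 171 in S1, and 315 and 183 in S4. The 6 regions had a median log2 ratio of S4 to S1 of 0.03, against 0.16 over all 2546 shared regions, and the score was higher in S4 in 3 of the 6. All 6 had scores within 2-fold of each other, as did 85.7% of all shared regions. Widths were 391 to 1121 bp in S1 and 443 to 1373 bp in S4, with medians of 713 bp (741 bp without the exonic Tbx5 peaks) and 772.5 bp, against 625 bp and 783 bp over the whole lists.

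**Figure D3:**
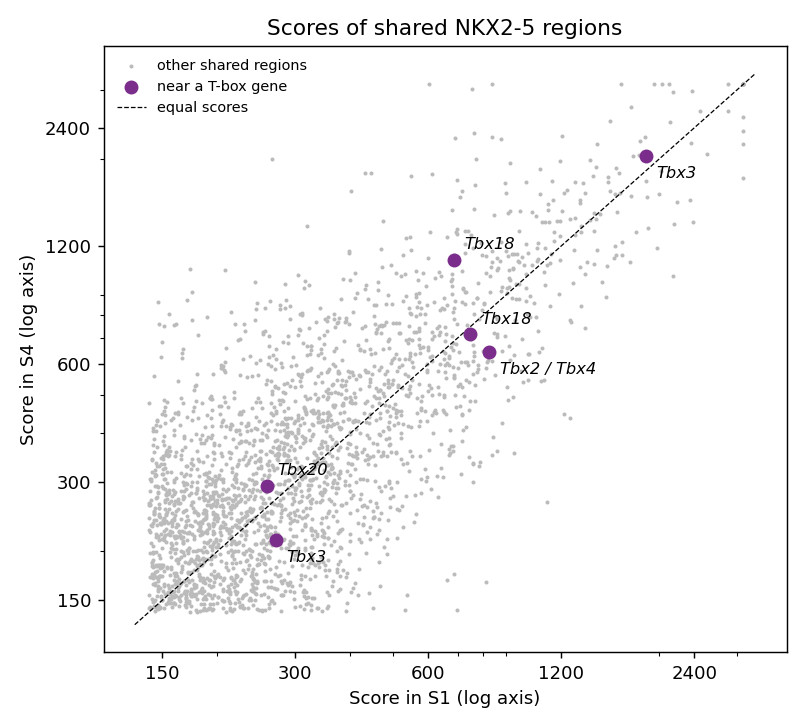
Score of every shared region in S1 (x axis, log) against S4 (y axis, log), with the highest score taken where a region held several peaks; purple points are the 6 regions near T-box genes, grey points the other shared regions, and the dashed line marks equal scores. The stronger Tbx3 region (1862 and 2031) lies near the line, and the upper Tbx18 point (684 and 1103) is farthest from it.

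Tbx5, the T-box partner of NKX2-5 whose loss disrupts chamber and septal development, had no shared region despite 9 peaks in the lists. Without the 4 S1 peaks on its exons it had 5, against 7 near Tbx3 and 7 near Tbx18. S1 had 5 peaks with scores of 216, 170, 180, 464 and 182, in the order of transcription, and S4 had 4 peaks with scores of 158, 141, 147 and 177. No S1 peak came closer than 2.05 kb to an S4 peak. Of 185 coding genes with at least 5 S1 peaks and at least 4 S4 peaks within 100 kb, Tbx5 was the only one without a shared region. These minimum numbers were set from Tbx5 itself after its peaks were seen, so its place in this set was fixed beforehand. With at least 3 peaks in each list 8 of 867 coding genes had no shared region, Tbx5 and Nkx2-5 itself among them. Both counts include the exonic peaks, and without these Tbx5 would reach neither S1 minimum.

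Most S1 peaks of Tbx5 overlapped its coding exons. The gene has 9 annotated exons, and 4 of the 5 S1 peaks covered exons 2, 6, 8 and the start of exon 9, each including the whole coding part of its exon. The peak at exon 6, chr5:120294849-120295239, began 125 bp before the exon and ended 113 bp after it, and that at exon 8, chr5:120321084-120321567, extended 108 bp and 149 bp. The peak at exon 9, chr5:120332781-120333599, was the strongest, with a score of 464. It began 141 bp before the exon and ended 106 bp after the last coding base, although the exon runs on as 3′ untranslated sequence for 1628 bp past the peak. The peak at exon 2, chr5:120286509-120287211, was less centred and extended 376 bp before the exon and 142 bp after it. In the order of the exons, coding sequence made up 20.9%, 39.1%, 46.9% and 69.8% of the 4 peaks. The exons under S1 peaks were 153, 185, 227 and 2306 bp long. The coding exons without a peak, exons 3, 4, 5 and 7, were 92 to 148 bp long, and the non-coding exon 1, 615 bp long, had none. No S4 peak touched an exon of Tbx5.

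**Figure D4:**
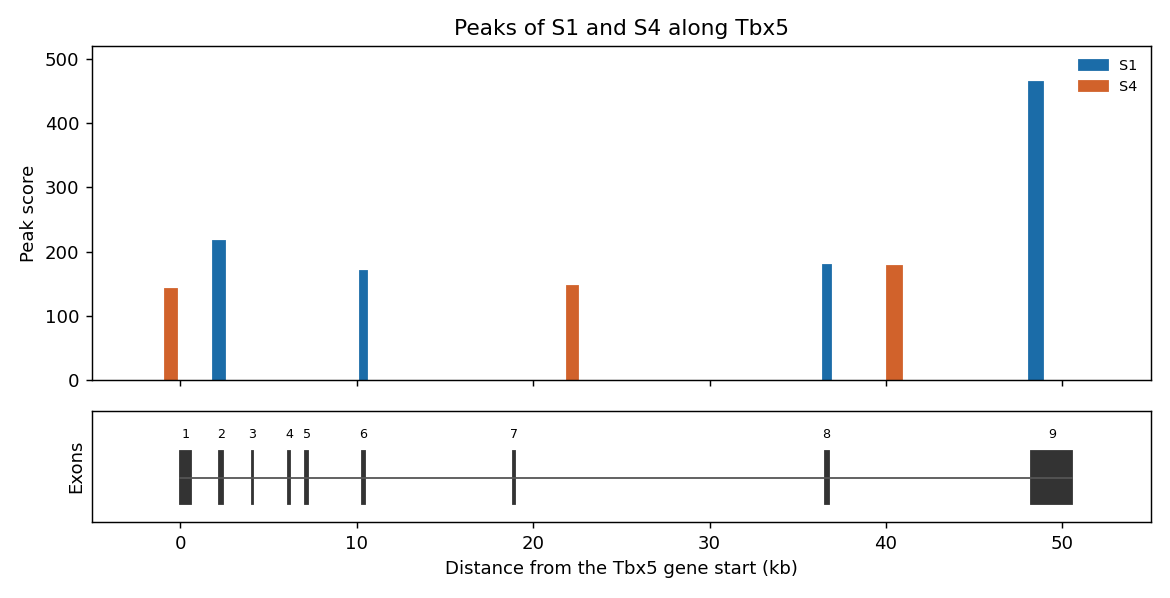
Peaks of S1 (blue) and S4 (orange) along Tbx5, drawn at their width with the score as height, above the 9 annotated exons; the x axis is the distance from the gene start in kb. The 4 S1 peaks stand over exons 2, 6, 8 and the first part of exon 9 (score 464), and the 3 S4 peaks in this stretch stand outside the exons.

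Coding sequence was present under 12.4% of all S1 peaks and 15.1% of all S4 peaks, and under 14.0% and 17.1% of those without a partner. Near the T-box genes, 5 of 14 S1 peaks and 1 of 16 S4 peaks held some, which were the 4 exonic peaks of Tbx5 and the shared region over the start of Tbx20. Tbx5 was the only gene with at least 3 S1 peaks that overlapped its coding sequence by at least 1 bp and had no S4 partner. This count was made after the Tbx5 peaks were seen. In S4 the same count gave 1 other gene, Myh7, a myosin heavy chain of cardiac muscle. Counting peaks with and without a partner, 6 genes had at least 3 S1 peaks that overlapped their coding sequence by at least 1 bp. The S1 peak of 464 was also unusual by its score. Of the 613 S1 peaks that scored at least as high, 98.5% overlapped an S4 peak, and of the 1817 S1 peaks without a partner 9 reached this score. The lists hold no reads, and whether the 4 exonic peaks of S1 were NKX2-5 binding or Tbx5 coding sequence without introns, such as cDNA, in that library was not tested. The counts above that include them carry this doubt.

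The S4 peaks near Tbx5 were weak and lay elsewhere. The lowest, with a score of 141, lay 0.544 kb upstream of the gene start (chr5:120283802-120284454), and its score was above 1.56% of the list. Those with scores of 147 and 177 were in introns, 22.2 kb and 40.5 kb from the start, and that with 158 lay 28.8 kb upstream. The remaining S1 peak, with a score of 182, lay 79.7 kb beyond the gene end. The nearest shared region to Tbx5 was the strong region of Tbx3, 182.9 kb upstream of Tbx5, the bodies of Tbx3 and Tbx5 being 149.9 kb apart.

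Tbx1 and Tbx15 had little or no signal. Near Tbx1 there was 1 S4 peak with a score of 148, above 7.88% of the list, which lay in an intron of Gnb1l, 38.1 kb beyond the Tbx1 end and 294.0 kb from the nearest S1 peak. Tbx15, the longest of the 8 genes at 113.9 kb, had no peak in either library. The nearest shared region lay 2628 kb from Tbx1 and 627.0 kb from Tbx15. Absence from a peak list says only that no stretch passed the threshold of the caller.

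Near the 8 genes, the shared region closest to the limit of 100 kb was the far Tbx18 region, and others lay between 100 kb and 200 kb from a gene body. A region 117.8 kb upstream of the Tbx18 start, chr9:87743686-87744164, scored 2346 in S1 and 1573 in S4, higher than either region inside the limit, and its nearest coding start was that of Tbx18. Upstream of Tbx20, regions lay at 114.2 kb (275 and 264) and 182.3 kb (736 and 596). The nearest coding start was that of Tbx20 for the former and that of Gm10181 for the latter. Downstream of Tbx5, which is 50.6 kb long, regions lay 242.9 kb (314 and 159) and 245.7 kb (688 and 500.6) from the gene start. Both were nearer to the start of Rbm19. With a limit of 200 kb there were 11 shared regions, and 6 of the 8 genes had one, Tbx5 being added. The share of all coding genes at this limit was not computed. The regions within 200 kb of Tbx5 included both Tbx3 regions, 182.9 kb and 198.4 kb upstream of the Tbx5 start, each counted once.

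Motifs of NKX2-5 and of MEIS1, the other homeodomain factor of the study, were compared between the regions. Exact matches on both strands were searched up to 100 bp to either side of the middle of each overlap. At Tbx20 this window lay within the first exon and apart from the printed sequence. AAGTG was present in 4 of the 6 regions near T-box genes, against 64.0% of all shared regions, and its longer form TNAAGTG in 2 of 6, against 32.4%. TGACA was present in 2 of 6, against 64.5%. The spaced pair GTGNTGACA, which contains TGACA, was present in 1 of 6, against 9.54%. Within these 100 bp the pair lay in the weaker Tbx3 region alone, at chr5:120086219-120086227 on the plus strand. Its centre was at -48 bp from the midpoint of the overlap. The same window held AAGTG at -83 bp and at -67 bp, the latter within TNAAGTG. The window of the stronger Tbx3 region held TGACA at -17 bp and no AAGTG.

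Within the same 100 bp on either side, the T-box site AGGTGTGA was present in 0 of 6 regions, against 1.69% of all shared regions. The GATA motif AGATAA was present in 0 of 6, against 19.0%. The TEAD motif GGAATG was present in 1 of 6, the region at the Tbx18 end, against 15.1%. Over the whole shared stretch, TGACA was present in 6 of 6 and AAGTG in 5 of 6, against 86.8% and 89.9% of all shared regions. GTGNTGACA was in 3 of 6 whole stretches, against 15.4%, and in 0 of 6 within 50 bp of the midpoint, against 4.79%. TNAAGTG and GGAATG were each in 3 of 6 whole stretches, against 54.7% and 37.4%. AGATAA was in 1 of 6 and AGGTGTGA in 0 of 6, against 39.0% and 3.97%. The 6 whole stretches were 590 to 1119 bp long and were not matched in length to the other shared regions. A longer stretch has more places for a match, so the whole-stretch shares are not at equal length. Among the peaks without a partner, AAGTG was found around the peak midpoint in 2 of 8 S1 peaks and 6 of 10 S4 peaks, against 56.6% and 53.4% of all such peaks, and TGACA in 4 of 8 and 8 of 10, against 50.6% and 50.3%. Among the peaks near Tbx5, 1 of 5 S1 peaks and 3 of 4 S4 peaks held AAGTG, and 2 of 5 and 4 of 4 held TGACA. Without the exonic Tbx5 peaks, 1 of 4 S1 peaks held AAGTG and 3 of 4 held TGACA. The motifs in peaks without a partner were counted after the data were seen. A match is a description of the sequence and does not show which factor was bound.

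The remaining T-box genes, Tbx6, Tbx10, Tbx19, Tbx21, Tbx22, Tbr1, Eomes, T and Mga, were taken as a whole for comparison. Shared regions lay near 3 of these 9 genes, against 24.3% of coding genes. S1 peaks lay near 4, against 38.4%, and S4 peaks near 7, against 44.7%. For the 8 genes followed here the numbers were 5, 6 and 7. Tbx19, known for its role in pituitary cells, had 2 shared regions, 27.1 kb and 23.0 kb beyond its end, with scores of 712 and 320 in S1 and 609 and 287 in S4. At Tbx6 and Tbx10 the nearest coding start was that of another gene, Ppp4c and Chka. The Tbx10 region lay 99.0 kb upstream of that gene, in an exon of Chka. With a limit of 50 kb, shared regions lay near 2 of these 9 genes and near 4 of the 8 genes followed here. The share of all coding genes at 50 kb was not computed. The scores at Tbx6, 394 in S1 and 147 in S4, differed by more than at any of the 6 regions near the 8 genes (log2 ratio -1.42). S4 alone had a peak with a score of 165 over the start of Mga.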

How the data were processed

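NKX2-5 ChIP-seq of E11.5 hearts gave 2 libraries, S1 and S4. Per the methods of the study, the authors aligned reads to mm9 with Bowtie and called peaks with MACS 1.4 (the Bowtie version and all settings are not given in the sources used here), and deposited 1 list per ChIP library. The deposited score in the lists is 10 times the negative log10 of a p-value, as read from the values, and is not scaled between libraries. Other deposited columns are positions in bp, printed here counted from 1.

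Groups were taken from the labels. Peaks, all within NCBIM37 (mm9), were placed by midpoint against GENCODE M1. A promoter is within 1 kb of a transcript start. Depth is unknown. The Clopper-Pearson method at a level of 0.95 gave the intervals. The genes and lists were chosen with earlier results of these data known. By rule, every shared region near the 8 genes is given with the gene it lies in and the nearest coding start, and the sequence is printed for the region of each gene whose lower rank in the 2 lists was best. Sets of genes noted as chosen after the data were seen are exceptions. Sequences are from NCBIM37. The RefSeq start of Tbx20 fell 1 bp upstream of the one used. Overlaps and windows were checked with bedtools 2.31.1 and on simulated data. Alternatives were other distances, scores, overlaps, list lengths and motif windows. Calculations used Python 3.11.15, scipy 1.17.1 and pysam 0.24.0.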

Additional observations from a re-analysis of the deposited data

How the results depend on the processing

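Across the 59 alternatives of the counts and shares that carry the report, 5 of them chosen after the data were seen, 54 stayed within 1.5-fold of the value or, for a share, within its interval, which is wide. Midpoints within 150 bp left 2 of 5 genes with a shared region, Tbx3 and Tbx18. A limit of 200 kb gave 11 shared regions in place of 6. A score of at least 200 left 9 S1 and 8 S4 peaks and raised the share of S4 peaks with a partner from 37.5% to 75% and that of S1 peaks from 42.9% to 66.7%. With lists of equal length the S4 share was 60% and the S1 share stayed at 42.9%. With midpoints within 150 bp the shares were 28.6% in S1 and 25% in S4. The shares over all peaks and all coding genes under that midpoint rule were not computed. Neither these shares nor the 2 genes can therefore be set against the whole-list shares given above. Leaving out 1 library gave 14 to 16 peaks and 6 to 7 genes with any peak. Of the 14 alternatives of the motif window, 7 moved a count of regions by more than 1.5-fold. Over the whole stretch TGACA moved from 2 to 6 and GTGNTGACA from 1 to 3. No paired analysis was possible because the ChIP libraries form 1 group and the Input library has no peak list here. Depth limits the weak peaks and every statement of absence.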
